A study of Mus musculus with 3 samples.

Results

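H19, Igf2 and Rasgrf1 are imprinted genes of the mouse whose control regions carry DNA methylation on the paternal chromosome and stay unmethylated in the oocyte. The windows that overlap these 3 gene bodies (GENCODE M21 annotation of the GRCm38 genome), or lie within 50 kb on both sides of them, were taken from the 1186323 valid windows of 2 kb for which H3K36me3 was deposited. They number 205, of which 97 lie in the H19-Igf2 region on chromosome 7 (chr7:142525529-142716816) and 108 in the Rasgrf1 region on chromosome 9 (chr9:89859908-90076977). All 97 window positions of the H19-Igf2 region were valid, whereas 2 of the 110 positions of the Rasgrf1 region, at chr9:89932001-89936000 inside the gene, were not and carry no value. The H3K36me3 libraries came from native ChIP-seq for very small cell numbers, without crosslinking, on germinal vesicle (GV) oocytes, the fully grown oocytes arrested before meiotic maturation. There was 1 group of 3 replicates, each a pool of about 280 oocytes from wildtype C57BL6/Babr mice aged 25 days, and replicate 2 was made with less antibody than replicates 1 and 3. The labels do not say whether the pools came from separate animals, so the spread between replicates may be technical. For H3K4me3 and H3K27me3 the deposited table gives 1 call per window, made by the authors from earlier libraries of the same laboratory, and no values per replicate.

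Valid windows held 7888140 reads for replicate 1, 2692510 for replicate 2 and 3166564 for replicate 3. The deposited values, named RPKM by the authors, were whole multiples of 1 read, worth 0.136, 0.396 and 0.338 RPKM for replicates 1, 2 and 3. A read was worth more than its depth and a window of 2 kb would give in RPKM, and nearer to its value in CPM (reads scaled to library depth only, without division by length), so RPKM here and below means the deposited scale, which served for relative levels. A window was called for H3K36me3 where the mean of the 3 replicates was above 1 RPKM. A single value above 1 takes at least 8 reads in replicate 1 and 3 reads in replicates 2 and 3. The level of a gene or region is the mean RPKM over its windows, given as the mean ± SD of the 3 replicates. Intervals on reads cover counting error only. With regard to the labelled cell type, 9 of 10 oocyte marker genes had a mean above 1 over the gene body, the exception, named after its value was seen, being Sohlh1 at 0.330 ± 0.173 RPKM (SD, n = 3). Of 10 granulosa cell marker genes, which mark the somatic cells around the oocyte, 4 were above 1, with means of the list from 0.265 to 2.02 RPKM and none at 0, against 52.5% of all 21063 protein-coding genes. A part of somatic cells in the values below was not tested.

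As background, H19 is a long non-coding RNA and Igf2, its neighbour, encodes insulin-like growth factor 2, a fetal growth factor. They share enhancers, and the control region upstream of H19 lies between Igf2 and most of these enhancers: when unmethylated, on the maternal chromosome, it is bound by the insulator protein CTCF, which keeps the enhancers from Igf2. Rasgrf1 encodes a guanine nucleotide exchange factor that activates RAS, and its control region lies far upstream of the gene, beside a tandem repeat needed for its methylation in the male germline. H3K36me3 is laid down over transcribed gene bodies by SETD2. In the growing oocyte it is linked to DNA methylation by the DNA methyltransferase DNMT3A with its cofactor DNMT3L. The study proposes that this link may be indirect. H3K4me3 hinders DNMT3A, and H3K27me3 is the mark of Polycomb repressive complex 2.

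The control regions are shown first. The H19 control region was taken as 2 to 4 kb upstream of the start of H19 (chr7:142580143-142582143) and overlaps 2 windows. The letters CCGC followed after 2 bases by GGNGGCAG, the core of the CTCF sites there, were searched on both strands. They occurred 4 times in the H19-Igf2 region, each time inside those 2 windows and on the strand of H19, between 2166 and 3891 bp upstream of its start. Across the genome they occurred in 336 of the 1186323 valid windows (0.0283%), and in 3 windows more than once, of which the window at chr7:142580001-142582000, with 3, is one. The letters were taken from the sites of this control region, so finding them there was set by that choice. No match to these letters was found in the 108 windows around Rasgrf1. With matches so rare, this does not tell whether CTCF binds there. The 4 sites (GRCm38.p6, RefSeq), with the core in capitals and 10 bases on either side, were as follows.
CTCF core 1, chr7:142582024-142582057, minus strand: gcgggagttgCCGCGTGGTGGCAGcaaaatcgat
CTCF core 2, chr7:142581780-142581813, minus strand: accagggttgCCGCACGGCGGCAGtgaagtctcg
CTCF core 3, chr7:142580754-142580787, minus strand: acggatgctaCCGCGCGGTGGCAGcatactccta
CTCF core 4, chr7:142580299-142580332, minus strand: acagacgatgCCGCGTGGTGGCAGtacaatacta

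The Rasgrf1 control region was taken as 28 to 32 kb upstream of the start of Rasgrf1 (chr9:89877908-89881908) and overlaps 3 windows. The letters GCTACTGCT are a part of the repeat unit, chosen after its sequence was seen. They recurred 35 times on the plus strand across 1707 bp, from 30076 to 28370 bp upstream of the start. Of the 34 spacings 25 were 40 or 41 bases, with a median of 40. The window at chr9:89880001-89882000 held these letters 33 times, counting both strands. Of all valid windows 1.82% held the letters at least 1 time, and 2 held them 33 times or more. The stretch of 200 bases with the most copies (5, in capitals) shows the repeat.
Rasgrf1 repeat, chr9:89880046-89880245, plus strand: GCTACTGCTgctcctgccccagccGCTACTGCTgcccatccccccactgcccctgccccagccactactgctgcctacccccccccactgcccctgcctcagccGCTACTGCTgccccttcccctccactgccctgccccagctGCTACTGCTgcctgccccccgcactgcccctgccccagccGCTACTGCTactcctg

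Both control regions held windows rich in CpG, the site of DNA methylation. The H19 control windows contained 59 and 20 CpG sites, and the Rasgrf1 control windows 25, 54 and 44, against a median of 14 over all valid windows. The window with 59 sites had more than 98.6% of all windows, and the window with 54 sites more than 98.3%.

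Neither control region reached the H3K36me3 threshold, which 31.8% of all valid windows passed, so most windows of the genome did not reach it either. At the H19 control region the level was 0.407, 0.595 and 0.338 RPKM in replicates 1, 2 and 3, with a mean of 0.447 ± 0.133 (SD, n = 3), from 11 reads in all (95% Poisson interval 5.49 to 19.7). The nearer window, which holds 3 CTCF cores and most of the control region, averaged 0.268 RPKM, with 3, 1 and 0 reads. The farther one, which the region reaches only at its edge, averaged 0.626 RPKM, with 3, 2 and 2 reads. Most reads of the H19 control region thus came from this edge window. The level over both windows lay below the 0.902 RPKM averaged over all valid windows in all replicates. At the Rasgrf1 control region the level was 0.453, 0.925 and 0.338 RPKM, with a mean of 0.572 ± 0.311 from 20 reads (12.2 to 30.9). Its 3 windows, going toward the gene, averaged 0.449, 0.732 and 0.535 RPKM, and 1 value, 1.59 RPKM or 4 reads in replicate 2, was above 1. The region reaches the first of these windows only at its edge. Replicate 2 was the highest at both control regions, and at Rasgrf1 it did not fall below the average of its library.

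The other marks differed between the control regions. Both windows of the H19 control region were called for H3K4me3 and H3K27me3, a pair of marks found without H3K36me3 in 8.94% of all valid windows. They belong to a run of 5 such windows that spans 10 kb (chr7:142576001-142586000) and takes in the start of H19. All 3 windows of the Rasgrf1 control region were called for H3K4me3 alone, against 14.3% of all valid windows. They lie in a run of 7 windows with H3K4me3 alone (chr9:89874001-89888000), inside a stretch of 15 windows or 30 kb called for H3K4me3. None of the 3 carried H3K27me3. As these are single calls without replicate values, the difference between the control regions was not tested.

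The starts of 9 maternally methylated genes (Kcnq1ot1, Airn, Peg3, Peg10, Nap1l5, Zrsr1, Mcts2, Nnat and Peg13) served as the comparison, since their starts lie in regions that gain methylation in the growing oocyte. Their 18 windows averaged 3.12, 3.59 and 3.99 RPKM, a mean of 3.57 ± 0.43 (SD, n = 3). All 18 were called for H3K36me3 (31.8% of all valid windows), none for H3K27me3 (30.0%), and 1, at Peg10, for H3K4me3 (28.3%). The gene levels ran from 1.45 ± 0.63 at Peg10 to 6.38 ± 1.63 at Peg3, so the mean of the lowest start stood above those of both paternally methylated control regions. In replicate 2, however, the start of Peg10 (0.793 RPKM) was below the Rasgrf1 control region (0.925). Their windows were also rich in CpG, with a median of 66 sites. On the log2(RPKM + 0.1) scale the H19 control region was lower than these starts by 2.77 ± 0.41 (SD, n = 3) and the Rasgrf1 control region by 2.54 ± 0.69, lower in 3 of 3 replicates each. With 3 replicates an exact sign-flip permutation test, two-sided, can give no p below 0.25, and p was 0.25 for both (0.344 after Benjamini-Hochberg adjustment over the 11 differences examined). No difference between regions reported here can therefore pass 0.05.

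Against the average over all valid windows, the H19 control region differed by -0.90 ± 0.34 on the log2 scale (3 of 3 replicates lower, exact permutation p = 0.25). The Rasgrf1 control region differed by -0.67 ± 0.64, with replicate 2 at 0.036 and the other two below (exact permutation p = 0.5), a difference about as large as the spread between replicates. Both values change sign when medians over windows replace means, to 0.048 and 0.018, where the median window of the genome holds 0.338 to 0.543 RPKM in a replicate. When only windows with their midpoint inside the region were used, which leaves out the edge windows, the differences were -1.77 for H19 and -0.69 for Rasgrf1. The H19 value then rests on the nearer window alone, with 3, 1 and 0 reads in replicates 1, 2 and 3. H3K36me3 over all overlapping windows was thus near that of the median window of the genome at both control regions. At H19 this rested on the edge window. Both control regions lay below the mean of the 9 maternally methylated starts in every replicate.

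**Figure D1:**
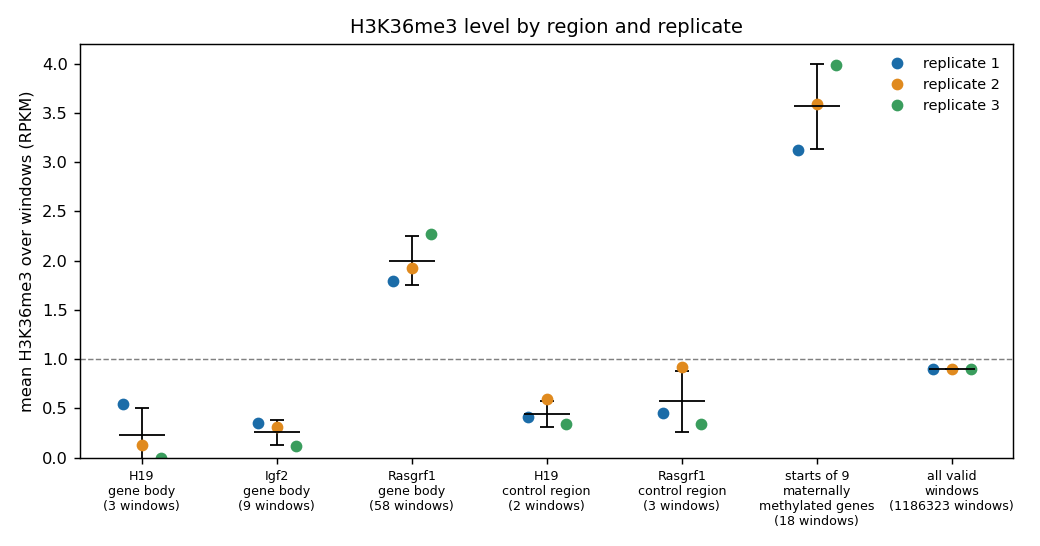
H3K36me3 level (RPKM, mean over the windows of each region, linear axis from 0) in the 3 replicates, with the mean as a bar and the SD as whiskers cut at 0. H19, Igf2 and both control regions sit below 1 RPKM (dashed line) in every replicate, Rasgrf1 between 1.79 and 2.28, and the starts of the 9 maternally methylated genes between 3.12 and 3.99.

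H3K36me3 was low over H19 and Igf2 and high over Rasgrf1. H19 (ENSMUSG00000000031, chr7:142575529-142578143, minus strand, 3 windows) had 0.543, 0.132 and 0 RPKM in replicates 1, 2 and 3, a mean of 0.225 ± 0.283 (SD, n = 3). These values rest on 12, 1 and 0 reads, and the absence of reads in replicate 3 allows up to 0.338 RPKM (3 reads over its windows). Igf2 (ENSMUSG00000048583, chr7:142650766-142666816, minus strand, 9 windows) had 0.347, 0.308 and 0.113 RPKM, a mean of 0.256 ± 0.126 from 33 reads, and only 12.3% of protein-coding genes were lower. Rasgrf1 (ENSMUSG00000032356, chr9:89909908-90026977, plus strand, 58 windows) had 1.79, 1.93 and 2.28 RPKM, a mean of 2.00 ± 0.25 from 1437 reads, above 77.2% of protein-coding genes. The replicates of Rasgrf1 did not overlap with those of either other gene, while those of H19 and Igf2 did.

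Igf2 and H19 differed by 0.46 ± 0.86 on the log2 scale, higher in 2 of 3 replicates (exact permutation p = 0.5), which is less than the spread between replicates. Rasgrf1 exceeded Igf2 by 2.62 ± 0.75 and its own control region by 1.73 ± 0.73, in 3 of 3 replicates each (exact permutation p = 0.25). The Igf2 and H19 bodies lay below the average of all valid windows by 1.56 ± 0.59 and 2.02 ± 1.34, and Rasgrf1 above it by 1.06 ± 0.17, again in 3 of 3 replicates (exact permutation p = 0.25). For H19 the size is loose, from -3.30 with a pseudocount of 0.01 to -1.02 with 0.5, and from -2.72 without replicate 1 to -1.37 without replicate 3. The H19 control region and the H19 body could not be ordered (1.12 ± 1.30, higher in 2 of 3 replicates, exact permutation p = 0.5). With medians over windows Igf2 fell on the other side of H19, at -0.26.

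Replicate 3 was the lowest at H19, at Igf2 and at both control regions, and the highest over Rasgrf1. The same order held over all valid windows: those with H3K27me3 alone averaged 0.391, 0.346 and 0.257 RPKM in replicates 1, 2 and 3, and those with H3K36me3 alone 2.03, 2.17 and 2.31. Replicate 3 thus gave the widest distance between Rasgrf1 and Igf2, 3.48 on the log2 scale against 2.08 in replicate 1.

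In the H19-Igf2 region H3K27me3 was the prevailing mark. It was called in 73 of 97 windows (75.3%), against 30.0% of all valid windows. H3K4me3 was called in 40 of 97 (41.2%), against 28.3%, and H3K36me3 in 8 of 97 (8.25%), against 31.8%, or in 13.4% when replicate 3 was left out. H3K27me3 alone marked 49 windows (background 18.5%). All 3 windows of H19 and all 9 of Igf2 carried H3K27me3, and 2 of the 3 and 6 of the 9 carried H3K4me3 as well. Between the genes 34 of 35 windows carried H3K27me3, 7 carried H3K4me3 and none H3K36me3. The level there was 0.532, 0.532 and 0.193 RPKM, a mean of 0.419 ± 0.195 (SD, n = 3).

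H3K27me3 was nearly unbroken across the domain. It covered 31 windows in a row (62 kb, chr7:142546001-142608000) and, after a gap of 1 window, 36 more (72 kb, chr7:142610001-142682000), so that both genes and the control region lay inside. No window was called for H3K36me3 over 74 windows in a row, 148 kb from chr7:142546001 to 142694000, which averaged 0.399 ± 0.179 RPKM. H3K4me3 was called in 26 of these 74 windows. Its runs of 5 or more windows that lay wholly inside were 5 windows over H19 and its control region and 6 windows (12 kb, chr7:142654001-142666000) over Igf2, each window with H3K27me3 too.

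The block of H3K4me3 over Igf2 held most of its annotated promoters. The RefSeq promoter table (250 bases before to 50 bases after each start) holds 4 promoters of Igf2, with 2, 14, 24 and 7 CpG sites in the order of transcription, against a median of 7 over 32851 promoters. The farthest upstream, with 2, lies in a window with H3K27me3 alone, and the other 3 in windows with H3K4me3 and H3K27me3. The most CpG-rich of them is printed with its CpG sites in capitals (GRCm38.p6, RefSeq). H19 had no entry in the table.
Igf2 promoter, chr7:142658755-142659054, minus strand: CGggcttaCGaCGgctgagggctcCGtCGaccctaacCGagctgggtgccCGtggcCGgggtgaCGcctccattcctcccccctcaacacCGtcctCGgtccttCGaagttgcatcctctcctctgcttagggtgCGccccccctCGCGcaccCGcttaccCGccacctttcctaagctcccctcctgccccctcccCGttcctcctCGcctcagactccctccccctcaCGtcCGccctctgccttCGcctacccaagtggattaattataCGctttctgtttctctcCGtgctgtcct

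The 8 windows with H3K36me3 lay at the outer ends of the region. Downstream of H19, 4 windows in a row (chr7:142538001-142546000) averaged 1.11 to 1.79 RPKM, over and beyond the end of Mrpl23, a gene for a protein of the mitochondrial ribosome whose body averaged 0.963 ± 0.090. Only 2 of the 97 windows were above 1 in each of the 3 replicates, against 19.7% of all valid windows, and both were among these 4. Upstream of Igf2 the other 4 carried H3K4me3 as well and averaged 1.00 to 1.97 RPKM. They lie within the long annotated body of the insulin gene Ins2, which averaged 0.505 ± 0.167. Of the 10 other genes that overlap the region, 3 of them protein-coding, none had a mean above 1, against 52.5% of all protein-coding genes. The protein-coding record Gm49394, at 0.278 ± 0.127, covers Igf2 and shares its windows, so that their values cannot be told apart. Several non-coding genes of the 10 lie in windows of H19 or Igf2 as well, so their values are not separate from those of the members.

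**Figure D2:**
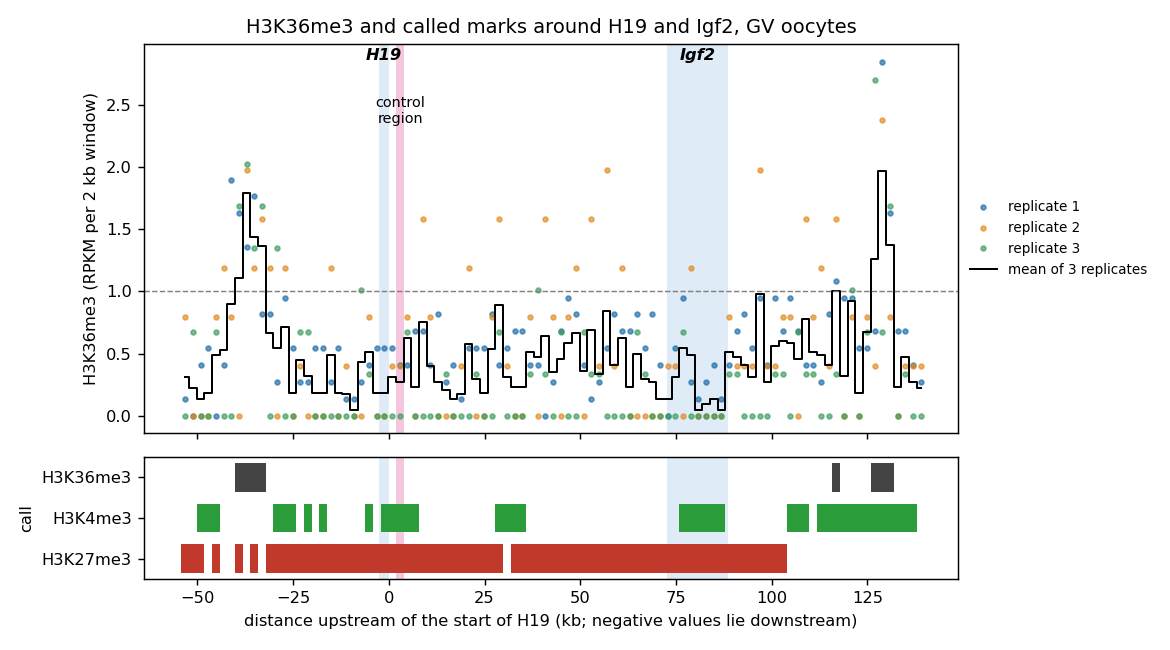
Upper panel: H3K36me3 (RPKM) in each 2 kb window by distance upstream of the start of H19 (kb), with points for the 3 replicates, a line for their mean and a dashed line at the threshold of 1. Lower panel: windows called for each mark. H19 and Igf2 (blue) and the H19 control region (pink) lie inside a block of H3K27me3 with no H3K36me3 call over 148 kb, and the 8 called windows stand at the ends.

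Around Rasgrf1 the picture changed along the chromosome. Upstream of the gene 1 of 25 windows was called for H3K36me3, in the gene body 38 of 58, and downstream 17 of 25. Over the whole region H3K36me3 was called in 56 of 108 windows (51.9%), against 31.8% of all valid windows. H3K4me3 was called in 51 (47.2%), against 28.3%. H3K27me3 was called in 36 (33.3%), which is near its share of 30.0% over all valid windows. The upstream stretch averaged 0.391, 0.476 and 0.284 RPKM, a mean of 0.384 ± 0.096 (SD, n = 3), and its single called window, at 1.14 RPKM, rested on replicates 1 and 2. H3K4me3 was called in 19 of its 25 windows, and 9 of these carried H3K27me3 too.

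The start of Rasgrf1 carried no H3K36me3 call. The 2 windows at the start had 0.543, 0 and 0.338 RPKM, a mean of 0.294 ± 0.274, and they contained 110 and 83 CpG sites. They belong to a run of 9 windows with H3K4me3 and H3K27me3 (18 kb, chr9:89906001-89924000) whose level was 0.327 ± 0.149. This is the same pair of marks as over the start of H19. The RefSeq promoter lies in this run and has 26 CpG sites in 300 bases, more than 83.1% of promoters. It is printed with its CpG sites in capitals (GRCm38.p6, RefSeq).
Rasgrf1 promoter, chr9:89909525-89909824, plus strand: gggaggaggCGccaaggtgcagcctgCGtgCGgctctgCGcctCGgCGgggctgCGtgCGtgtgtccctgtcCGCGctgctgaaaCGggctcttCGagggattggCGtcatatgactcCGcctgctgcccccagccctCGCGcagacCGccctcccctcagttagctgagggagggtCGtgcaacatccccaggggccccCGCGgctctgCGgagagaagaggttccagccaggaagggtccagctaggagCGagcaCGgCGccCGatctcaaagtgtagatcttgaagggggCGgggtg

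H3K36me3 over Rasgrf1 set in well inside the gene. Beyond 2 single called windows at about 15 and 35 kb from the start, the mark was called in a run of 6 windows (chr9:89950001-89962000, 1.95 ± 0.80 RPKM) and then in 30 windows in a row (60 kb, chr9:89968001-90028000), at 2.69, 2.80 and 3.71 RPKM in replicates 1, 2 and 3. That run closes with the window in which the gene ends. Within it 26 windows in a row were above 1 in each of the 3 replicates. In the whole body 31 of 58 were, against 19.7% of all valid windows. The highest window of the gene (chr9:90014001-90016000) had 4.48, 5.95 and 7.78 RPKM from 33, 15 and 23 reads. All 4 annotated transcripts start within 5 bases of each other at the 5′ end of the gene, so no annotated start lies at the onset of the mark.

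**Figure D3:**
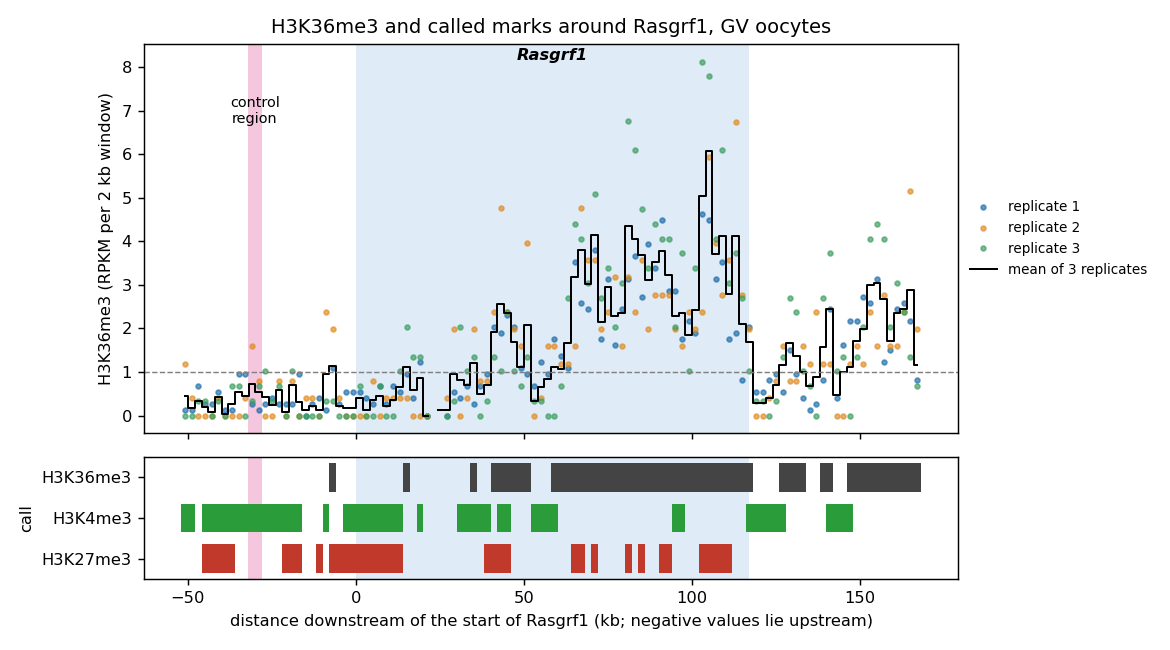
Upper panel: H3K36me3 (RPKM) in each 2 kb window by distance downstream of the start of Rasgrf1 (kb), with points for the 3 replicates, a line for their mean (broken where 2 positions were not valid) and a dashed line at 1. Lower panel: windows called for each mark. The control region (pink) carries H3K4me3 alone, the start H3K4me3 and H3K27me3, and a run of 30 windows with H3K36me3 ends with the gene (blue).

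When the body was divided into 10 equal parts, the first 5 averaged 0.842, 1.04 and 0.792 RPKM in replicates 1, 2 and 3 and the last 5 averaged 2.70, 2.87 and 3.81. The means were 0.890 ± 0.129 and 3.12 ± 0.60, a log2 difference of 1.70 ± 0.39, higher in 3 of 3 replicates (exact permutation p = 0.25, the smallest possible). This split was chosen after the values had been seen. Among 4858 protein-coding genes of 50 kb or longer the median difference was 0.23, and 96.6% had a smaller one than Rasgrf1. In the part nearest the start Rasgrf1 was at 0.322 ± 0.134 RPKM, below the lower quartile of these genes (0.369), and in the part nearest the end at 3.37 ± 0.99, above their upper quartile (2.38). In the 20 kb beyond the end the level was 0.923 ± 0.087.

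The 3 genes with the profile most like that of Rasgrf1, by root mean square difference over 12 parts (10 of the gene body, plus 20 kb before its start and after its end), were Mrvi1 at 0.449 RPKM, Gnptab at 0.470 and Acap2 at 0.487, against a median of 1.31 over the 4858 genes. Their first 5 parts averaged 0.715, 0.653 and 0.731 RPKM and their last 5 averaged 2.81, 3.03 and 2.65.

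**Figure D4:**
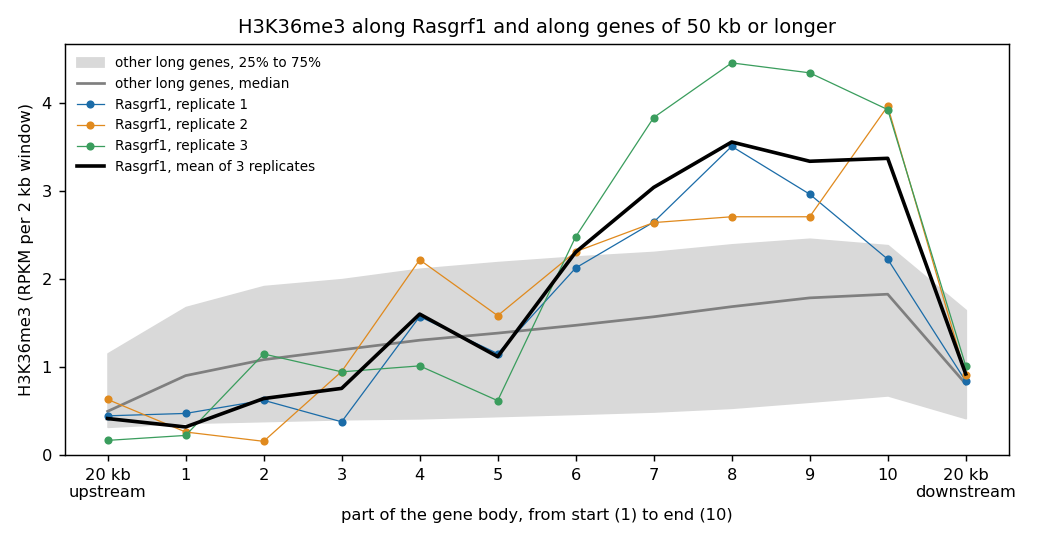
H3K36me3 (RPKM per 2 kb window) over 20 kb upstream, 10 equal parts of the gene body and 20 kb downstream of Rasgrf1 in the 3 replicates and their mean (black), with the median (grey line) and the middle range between quartiles (grey band) of 4858 genes of 50 kb or longer. Rasgrf1 starts below the band, at 0.322 RPKM, and passes above it from part 6 to part 10.

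The H3K36me3 windows of Rasgrf1 often carried H3K27me3, a pair of marks that is scarce elsewhere. H3K36me3 with H3K27me3 and without H3K4me3 marked 13 of the 58 windows (22.4%), against 2.06% of all valid windows. These 13 windows averaged 3.28, 3.32 and 4.89 RPKM of H3K36me3, a mean of 3.83 ± 0.92 (SD, n = 3), whereas the 18 windows with H3K36me3 alone averaged 2.04, 2.44 and 2.63, a mean of 2.37 ± 0.30. The windows with both marks were thus the higher ones in each replicate. Over all valid windows the order was the other way, 1.92 ± 0.22 with both marks and 2.17 ± 0.14 with H3K36me3 alone. A run of 5 such windows (chr9:90012001-90022000) lies near the end of the gene, at 4.35 ± 1.28 RPKM. This comparison was made after the values had been seen and was not tested. The calls came from separate libraries, so marks called in the same window need not come from the same oocytes. The study proposes that such windows may reflect differences between oocytes, which was not tested here.

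Downstream of Rasgrf1 H3K27me3 was not called in any of the 25 windows, and H3K36me3 was called in 4 windows (chr9:90036001-90044000), 2 windows (chr9:90048001-90052000) and then 11 windows in a row (chr9:90056001-90078000) that lie over Ctsh, the gene for the lysosomal protease cathepsin H. Ctsh was the only one of the 14 other genes of both regions with a mean above 1, at 2.09, 1.95 and 2.23 RPKM, a mean of 2.09 ± 0.14 with 11 of 12 windows called. Only 4 of the 14 are protein-coding, and 52.5% of all protein-coding genes had a mean above 1.

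**Figure D5:**
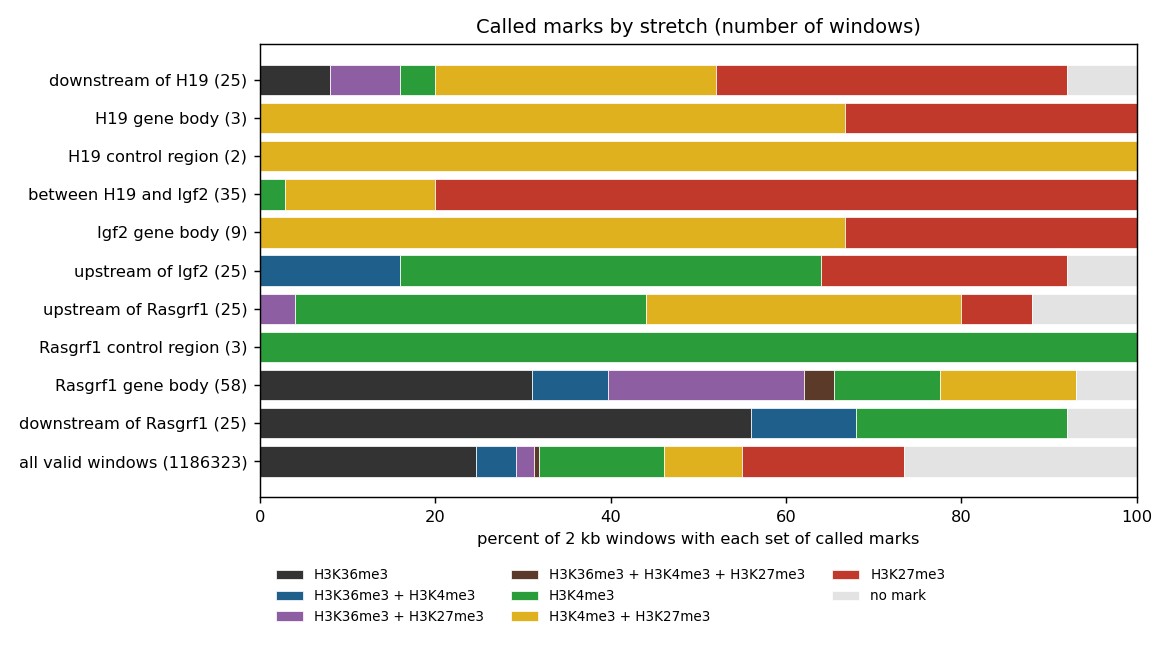
Percent of the 2 kb windows of each stretch (rows, number of windows in brackets) that carried each set of called marks (colours), with all valid windows in the last row. H3K27me3 and its pairing with H3K4me3 fill the rows from H19 to Igf2, except for 1 window between the genes with H3K4me3 alone. H3K4me3 alone fills the Rasgrf1 control region, and H3K36me3 with H3K27me3 takes 22.4% of the Rasgrf1 gene body.

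The relatives of the members in their pathways did not share 1 state, and the share of them above 1 was near that of all protein-coding genes. Of 15 genes of insulin-like growth factor signalling 7 had a mean above 1 RPKM over the gene body, and of 12 genes of RAS and its exchange factors and inhibitors 7 did, against the 52.5% of all protein-coding genes given above. In the first list Igf2r, the receptor that clears IGF2 and is itself imprinted, was highest at 3.05 ± 0.30 RPKM with 43 of 44 windows called. Igf2bp2 and Igf2bp3, which bind the Igf2 mRNA, followed at 2.45 ± 0.21 and 2.12 ± 0.19. The lowest were the binding protein gene Igfbp4 at 0.314 ± 0.022 and the receptor substrate gene Irs1 at 0.306 ± 0.200, near Igf2 itself. The body of Igf2r contains the start of Airn, so the level of Igf2r includes the windows of that start.

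In the RAS list the highest were the RAS gene Nras at 2.05 ± 0.32 RPKM and Nf1, which encodes the RAS inhibitor neurofibromin, at 1.98 ± 0.15, both close to Rasgrf1. The lowest were the exchange factor genes Rasgrp1 at 0.481 ± 0.035 and Rasgrf2 at 0.313 ± 0.057. Rasgrf2, the closest relative of Rasgrf1, had 0.342, 0.350 and 0.248 RPKM, with 91 of its 112 windows called for H3K27me3 and 1 for H3K36me3. The replicates of Rasgrf1 and Rasgrf2 did not overlap.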

How the data were processed

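H3K36me3 was measured in 3 pools of GV oocytes. According to the study's methods the authors used TrimGalore for trimming, Bowtie2 (version 2.2.9 in the submitters' processing notes) for mapping to GRCm38 and SeqMonk for counting over 2 kb windows. They removed windows with very low or very high input signal and deposited RPKM values per window and replicate. Removal of duplicate reads is not given in the sources used here, so reads may include PCR copies. The second deposited table holds mark names, with no measurement. The deposited H3K36me3 call equalled a mean RPKM above 1 in all windows (0 differences). Reads were recovered as multiples of the smallest step (100% whole within 0.01 reads).

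A window was assigned to each gene or region it overlapped. Levels were means over windows, and regions were compared within each replicate as differences of log2(RPKM + 0.1), which understates changes of low values, tested by exact permutation of signs, two-sided, and Benjamini-Hochberg adjustment over 11 differences. The code was tested on simulated data. Python 3.11.15, numpy 2.4.6, pandas 2.3.3 and scipy 1.17.1 were used. The 205 windows, gene lists and tests were chosen with earlier results of these data known. Named genes were the 3 members, other protein-coding genes of both regions, the 3 highest and 2 lowest genes of the pathway lists with Igf2r and Rasgrf2, the 9 maternally methylated genes, and the 3 genes most like Rasgrf1 in profile. A gene that this rule names is not reported here. Sequences and motifs were read from RefSeq (GRCm38.p6), whose chromosome lengths hold every window. Alternatives were other pseudocounts, a filter on windows without reads, assignment by midpoint, medians, other thresholds and flanks, the same chromosome as reference, and leaving out each replicate.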

Additional observations from a re-analysis of the deposited data

How the results depend on the processing

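No paired analysis was possible because all samples belong to 1 group, so that no groups could be paired (regions were compared within each replicate). Of 93 alternative values of the 11 log2 differences 90 kept their direction, and no p can pass 0.05 in any of them, so their tests say nothing about stability. The exceptions used medians over windows, which gave 0.048 for the H19 control region against all valid windows, 0.018 for the Rasgrf1 control region against them, and -0.26 for Igf2 against H19. In sparse counts the median of a few windows takes few values. Sizes moved more than directions. With a pseudocount of 0.01 the differences were -3.30 for H19 against all valid windows, 2.27 for the H19 control region against H19 and 1.38 for Igf2 against H19. With 0.5 they were -1.02 and 0.45 for the first and second of these, -0.91 for Igf2 against all valid windows, 1.73 for Rasgrf1 against Igf2 and -2.11 for the H19 control region against the maternally methylated starts. By midpoint, which left only its nearer window, the H19 control region was at -1.77 against all valid windows and -3.61 against those starts. With medians Rasgrf1 was at 1.88 against all valid windows and 3.62 against Igf2. Without replicate 1 the H19 control region was at 1.86 against H19.

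The share of windows called for H3K36me3 in the H19-Igf2 region was 0% with 25 kb flanks and 0% at a threshold of 2 RPKM, and it ranged from 7.22% to 13.4% when 1 replicate was left out (the highest without replicate 3). It was 2.06% at a threshold of 1.5, 2.06% where each replicate had to be above 1 and 14.5% with 100 kb flanks, moves that fall within its wide spread between replicates only because that spread is nearly as large as the share. In replicate 2 alone, added after the data had been seen, 21.6% of its windows were above 1. With 25 kb flanks 91.5% of its windows carried H3K27me3. In the Rasgrf1 region the H3K36me3 share was 44.3% with 100 kb flanks, 41.7% and 32.4% at thresholds of 1.5 and 2, 38.0% where each replicate had to be above 1, and 46.3% in replicate 1 alone, also added later. It ranged from 48.1% to 52.8% without 1 replicate. At the thresholds of 1.5 and 2 the share over all valid windows was 22.7% and 15.0%. Of the 38 alternative shares 29 moved by less than the spread between replicates or, for H3K4me3 and H3K27me3, stayed within the binomial interval.

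Depth limits the short regions: H19 rests on 13 reads, its control region on 11 and the Rasgrf1 control region on 20, which gives wide counting intervals.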
